A study of Homo sapiens with 18 samples.

Results

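Interferon-induced genes were examined in the human glioblastoma cell line U-87MG, in which the amino acid oxidase IL4I1 was expressed and the aryl hydrocarbon receptor AHR was knocked down. A list of 42 genes named as interferon-induced was matched to the array annotation, and 39 of them had a probe set carrying that gene symbol alone. IFIT1, IFIT2 and CXCL10 were not analysed here. The 39 genes were read against all 15529 genes of the array that carried a single symbol.

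The 18 arrays formed 6 groups of 3. Cells carried a lentiviral IL4I1 vector together with the AHR hairpin shAHR1, the AHR hairpin shAHR2 or the non-targeting hairpin shCtrl, or they carried the empty control vector together with shAHR1, shAHR2 or shCtrl. All were puromycin-selected stable lines, and all were cultured for 120 h before total RNA was taken. The replicates are described as independent experiments, but the labels do not state whether a group holds more than 1 infected line, so the p-values measure the spread between experiments. Every group therefore carried both a lentiviral vector and a hairpin, and cells without any virus were not part of this set.

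Interferons signal through cell-surface receptors and Janus kinases to STAT proteins. Type I interferon activates a complex with STAT2 and IRF9 that binds the interferon-stimulated response element (ISRE), whereas interferon gamma acts through the gamma-activated site (GAS). The induced genes encode transcription factors that extend the response, enzymes and membrane proteins that block viral replication, and feedback inhibitors. IL4I1 oxidises aromatic amino acids outside the cell and yields ligands of AHR, a ligand-activated transcription factor, and the arrays were made to set IL4I1-expressing cells with and without AHR against cells without IL4I1.

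The engineered genes followed the labels on these arrays. IL4I1 averaged 12.85 to 12.90 on the log2 scale in the 3 groups with the IL4I1 vector, against 5.84 to 6.10 in the 3 groups with the control vector. AHR averaged 7.61 to 8.05 in the 4 groups with an AHR hairpin, against 10.02 and 10.14 in the 2 groups with shCtrl. Of the glioblastoma markers, VIM, CD44, FN1 and SPARC stood between percentiles 98.7 and 99.9 of all genes by mean level, while NES stood at percentile 38.6. The 5 measured of 8 leukocyte markers summed to 31.1 to 34.7 with the IL4I1 vector and 30.9 to 34.3 with the control vector, and they stood at percentiles 34.5 (CD3E), 43.1 (PTPRC), 52.6 (CSF1R), 55.1 (AIF1) and 61.7 (NCAM1). Array medians lay between 6.46 and 6.53, and replicate 2 of the control-vector shCtrl cells had the widest spread of relative log expression (interquartile range 0.52, against a lowest value of 0.316). Replicate 1 of the IL4I1 shCtrl cells had a spread of 0.466 and the lowest mean correlation with the other arrays (0.904). It was also lowest for the interferon-induced genes, whose median deviation from their own medians ran from -0.24 on this array to 0.12.

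Differences are log2 values from limma, fitted on all 15529 genes in a model of the 6 group means, with standard errors. A gene rose or fell where its Benjamini-Hochberg adjusted p was under 0.05. Across 12 comparisons the 39 genes gave 10 such calls, all upward, and the calls came from 6 genes: IRF1, IFI35, IFI16, IFITM1, IFITM2 and IFITM3. The other 33 were called in none of the 12 comparisons, and 13 of the 39 had no unadjusted p under 0.05 in any of them. The heat map of all arrays shows the genes by role.

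**Figure D1:**
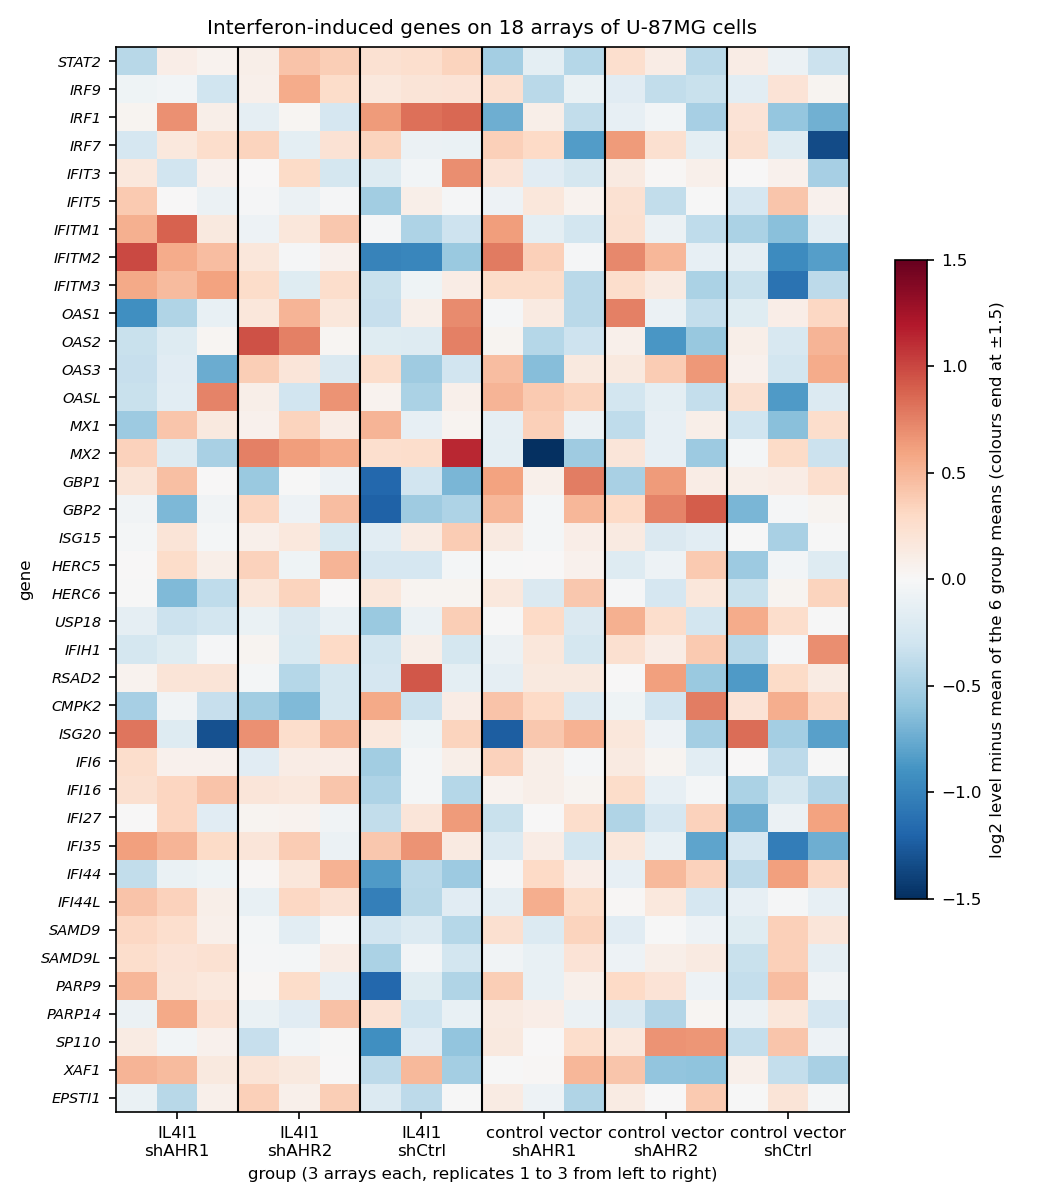
Heat map of 38 interferon-induced genes (rows, ordered by role) on 18 arrays (columns, 3 per group); colour gives the log2 level minus the mean of the 6 group means of that gene, ending at ±1.5. IFITM2 and IFI16 are high in all 4 groups with an AHR hairpin. IRF1 is high in IL4I1 shCtrl cells, and IFI35 averages higher in each IL4I1 group than in any control-vector group. BST2 is not drawn because its means lay in the lowest 1% of all group means, up to 4.51. The exception was IL4I1 shAHR1 cells, at 4.68.

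Proximal promoters from RefSeq (GRCh38.p14) are shown for 6 genes, 4 that passed the test in a comparison and 2 that did not. Of the 39 genes, 32 had a promoter in that table. IFITM2 was not among the 32. IFI16, called in 3 comparisons, had 2 promoters there, and none of the letters described here was found in either. In the 250 bases before the annotated start, the ISRE core (GAAA, any 2 bases, GAAA, or its reverse complement TTTC, any 2 bases, TTTC) was found in 21 of these 32 genes (65.6%), against 3.71% of 27305 genes. The GAS letters TTCNNNGAA, which read the same on both strands, were found in 11 of 32 (34.4%), against 8.09% of all. The AHR core GCGTG, or CACGC on the other strand, was found in 8 of 32 (25%), against 36.2% of all genes. A match describes the letters in this window and does not show binding.

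The promoters of IRF1 (chr5:132490774-132491023, minus strand) and IFI35 (chr17:43006534-43006783, plus strand) are shown because these genes rose with IL4I1. Each holds GAS letters, in capitals, 124 bases before the start in IRF1 and 22 bases before it in IFI35, and neither holds the ISRE core in this window. IRF1 also holds the AHR core, and IFI35 does not.
IRF1: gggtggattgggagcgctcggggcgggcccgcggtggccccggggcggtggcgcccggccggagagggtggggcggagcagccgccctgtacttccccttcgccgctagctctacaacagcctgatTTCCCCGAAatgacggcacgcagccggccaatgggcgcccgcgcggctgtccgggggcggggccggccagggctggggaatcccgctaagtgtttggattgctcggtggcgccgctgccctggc
IFI35: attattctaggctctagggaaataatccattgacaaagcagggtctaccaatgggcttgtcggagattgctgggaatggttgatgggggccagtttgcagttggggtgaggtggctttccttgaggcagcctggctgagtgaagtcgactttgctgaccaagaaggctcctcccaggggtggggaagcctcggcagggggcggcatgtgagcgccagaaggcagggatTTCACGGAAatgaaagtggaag

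The promoters of the neighbouring genes IFITM1 (chr11:313790-314039, plus strand) and IFITM3 (chr11:320861-321110, minus strand) are shown because both rose when IL4I1 was combined with shAHR1. IFITM1 has an ISRE core 40 bases and GAS letters 12 bases before the start, and IFITM3 has ISRE cores 52 and 35 bases before it, all in capitals. Neither window holds the AHR core.
IFITM1: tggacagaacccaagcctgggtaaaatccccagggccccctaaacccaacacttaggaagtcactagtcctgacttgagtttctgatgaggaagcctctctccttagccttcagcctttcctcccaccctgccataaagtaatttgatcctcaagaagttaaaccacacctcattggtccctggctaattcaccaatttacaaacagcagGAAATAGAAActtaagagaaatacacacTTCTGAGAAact
IFITM3: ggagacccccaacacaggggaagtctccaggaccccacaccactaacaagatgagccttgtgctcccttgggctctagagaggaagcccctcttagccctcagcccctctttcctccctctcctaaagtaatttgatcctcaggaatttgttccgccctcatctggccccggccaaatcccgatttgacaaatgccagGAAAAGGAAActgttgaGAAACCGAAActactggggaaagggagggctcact

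IFI44L (chr1:78620198-78620447, plus strand) and ISG15 (chr1:1013247-1013496, plus strand) are shown as genes with clear ISRE cores that did not pass the test in any comparison. In IFI44L the capitals mark ISRE cores 164 and 73 bases before the start, and in ISG15 they mark overlapping cores 113 and 107 bases before it. The ISG15 window also holds the AHR core, and that of IFI44L does not.
IFI44L: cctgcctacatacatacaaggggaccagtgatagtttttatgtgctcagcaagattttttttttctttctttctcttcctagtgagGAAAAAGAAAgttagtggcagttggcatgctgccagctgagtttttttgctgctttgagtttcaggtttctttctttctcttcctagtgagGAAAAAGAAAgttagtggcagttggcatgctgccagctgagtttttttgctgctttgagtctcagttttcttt
ISG15: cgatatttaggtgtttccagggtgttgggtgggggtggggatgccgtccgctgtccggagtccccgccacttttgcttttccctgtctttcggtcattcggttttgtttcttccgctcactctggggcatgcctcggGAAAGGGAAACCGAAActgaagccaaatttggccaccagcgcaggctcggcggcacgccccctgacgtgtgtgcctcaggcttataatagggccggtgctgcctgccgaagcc

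IL4I1 in shCtrl cells asked what the enzyme changes where AHR is intact. IRF1, an interferon-induced transcription factor that activates further interferon-responsive genes, and IFI35, a leucine-zipper protein that partners with NMI, were the 2 of 39 genes that rose, and 0 fell. These 2 are 5.13% of the list, against 4.58% of all genes called in either direction and 2.02% called higher, so the share in either direction is close to the background.

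IRF1 read 8.03, 8.22 and 8.26 on the log2 scale in IL4I1 shCtrl cells, against 7.60, 6.82 and 6.68 in control-vector shCtrl cells. All 3 arrays with IL4I1 lay above all 3 with the control vector. The difference was 1.14 ± 0.25 (2.20-fold, adjusted p = 0.018). IFI35 read 8.22, 8.48 and 7.94 in IL4I1 shCtrl cells, against 7.56, 6.77 and 7.08 in control-vector shCtrl cells. The groups did not overlap here either, and the difference was 1.08 ± 0.25 (2.11-fold, adjusted p = 0.022). Neither call held when the 2 groups were fitted alone. The count of genes called was 0 without replicate 2 or replicate 3 of the control-vector shCtrl cells or without replicate 2 of the IL4I1 shCtrl cells, and 1 without replicate 1 or replicate 3 of the IL4I1 shCtrl cells. Over all genes, leaving out 1 array moved the count from 711 to between 250 and 1065.

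In the same comparison the arrays of the groups did not overlap for 9 of 39 genes (23.1%, against 20.3% of all genes), 4 higher (10.3%, against 9.43%) and 5 lower (12.8%, against 10.9%). At an unadjusted p under 0.05 there were 7 of 39 (17.9%, against 18.9%). Beside IRF1 and IFI35, the 4 that were higher with IL4I1 were IFITM3 and STAT2, the partner of IRF9 in the ISRE-binding complex. STAT2 read 8.89, 8.92 and 9.0 in IL4I1 shCtrl cells, against 8.78, 8.58 and 8.34 in control-vector shCtrl cells (difference 0.38 ± 0.19, adjusted p = 0.32). Its IL4I1 arrays sat close together just above the highest control array.

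The 5 with lower arrays were IFI44, IFI44L, GBP1, SAMD9 and BST2, and none of them passed the test. IFI44, an interferon-induced cytoplasmic protein, read 6.96, 7.41 and 7.27 in IL4I1 shCtrl cells, against 7.42, 8.43 and 8.12 in control-vector shCtrl cells (-0.78 ± 0.24, adjusted p = 0.073). It was called in 4 alternatives, at adjusted p of 0.0095 to 0.039. The highest IL4I1 array and the lowest control array were nearly level. GBP1, a GTPase that acts on pathogen-containing vacuoles, read 5.4, 6.30 and 5.90 in IL4I1 shCtrl cells, against 6.67, 6.69 and 6.83 in control-vector shCtrl cells (-0.86 ± 0.28, adjusted p = 0.092). BST2, a protein that tethers budding virions, read 3.73, 2.59 and 1.96 in IL4I1 shCtrl cells, against 3.83, 4.11 and 4.19 in control-vector shCtrl cells. At these levels no size of change is given. The median difference over the 39 genes was 0.07, against 0.02 over all genes, with 21 positive and 18 negative.

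**Figure D2:**
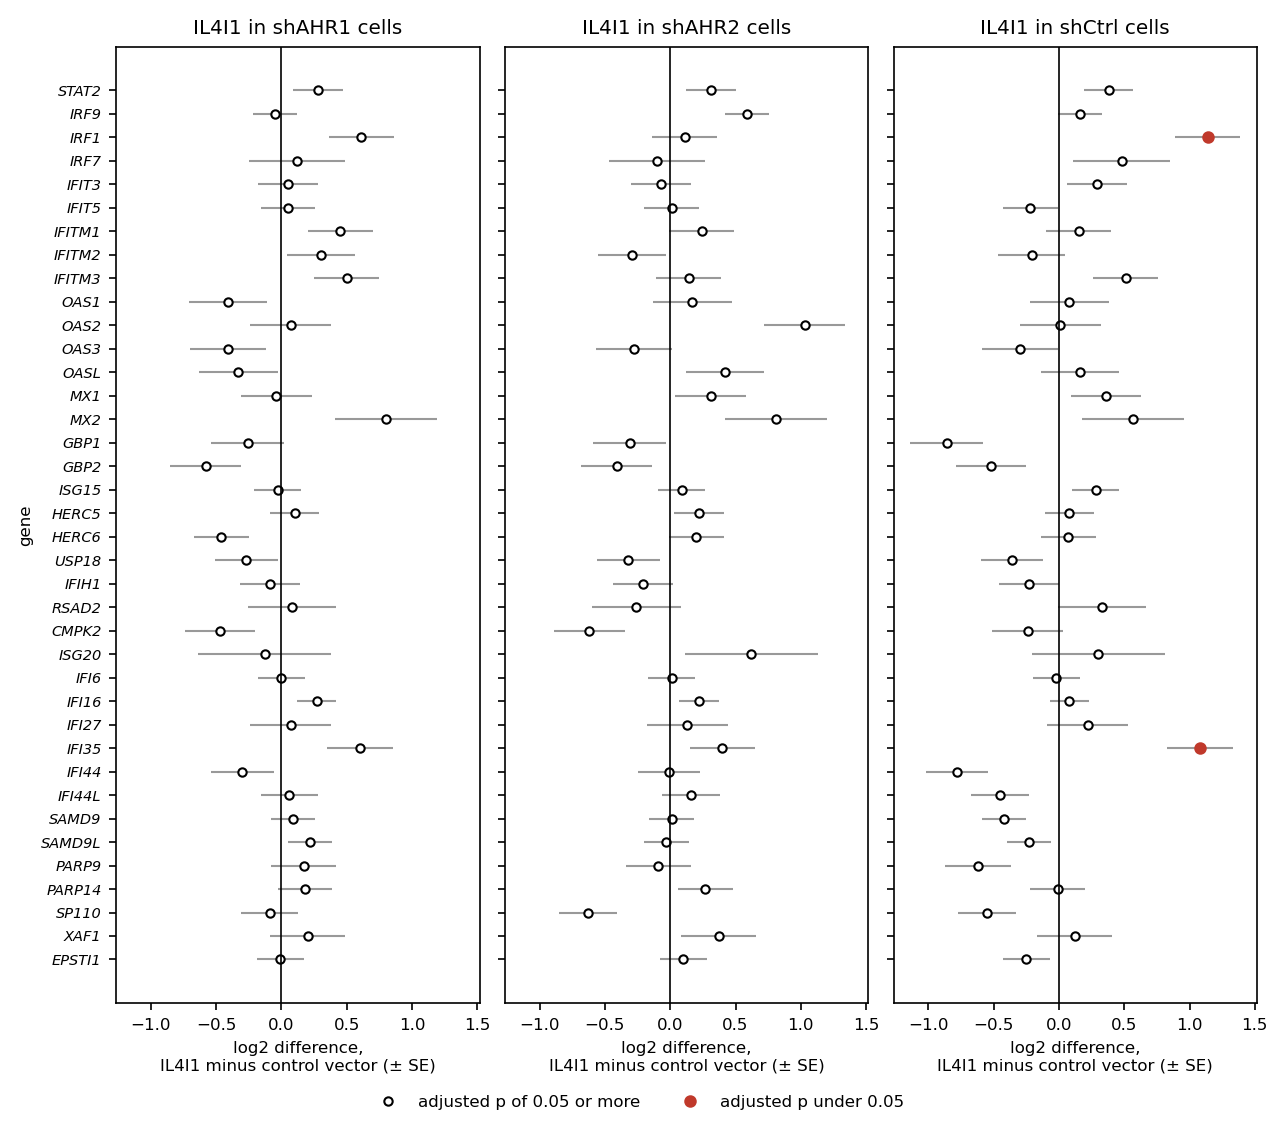
Log2 difference of IL4I1 minus control vector (points, with standard error) for 38 interferon-induced genes in each hairpin background; filled points passed an adjusted p of 0.05. Only IRF1 and IFI35 in shCtrl cells are filled, with differences of 1.14 and 1.08.

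With either AHR hairpin, IL4I1 gave 0 calls among the 39 genes in limma. In shAHR1 cells the background was 1.31% of all genes, and 4 of 39 genes had an unadjusted p under 0.05 (10.3%, against 13.2%). In shAHR2 cells the background was 0.612%, and 4 of 39 had an unadjusted p under 0.05 (10.3%, against 11.9%). In shAHR1 cells the arrays were all higher with IL4I1 for 4 genes (10.3%, against 8.19%) and all lower for 2 (5.13%, against 9.87%). In shAHR2 cells they were all higher for 3 (7.69%, against 8.91%) and all lower for 1 (2.56%, against 9.88%). The difference for IRF1 was 0.61 ± 0.25 in shAHR1 cells and 0.11 ± 0.25 in shAHR2 cells (adjusted p = 0.29 and 0.92). For IFI35 it was 0.60 ± 0.25 and 0.40 ± 0.25 (adjusted p = 0.29 and 0.58). IRF9 read 6.5, 6.97 and 6.69 in IL4I1 shAHR2 cells, against 6.25, 6.05 and 6.09 in control-vector shAHR2 cells (0.59 ± 0.17, adjusted p = 0.13), with no overlap of the groups. With array weights IRF9 was called (0.62, adjusted p = 0.048).

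Whether IL4I1 acted otherwise when AHR was knocked down was tested as an interaction, the mean IL4I1 difference over both AHR hairpins minus that in shCtrl cells. It gave 0 calls among the 39 genes, against 0.0193% of all genes. At an unadjusted p under 0.05 there were 5 of 39 (12.8%, against 5.38%). The interaction for IRF1 was -0.78 ± 0.31 (95% interval -1.43 to -0.13, adjusted p = 0.84) and for IFI35 -0.58 ± 0.30 (interval -1.22 to 0.07, adjusted p = 0.93). A larger IL4I1 difference for IRF1 in shCtrl cells than in AHR knockdown cells was thus not shown at this number of arrays, and the interval for IRF1 leaves room for a difference above 1 log2 unit.

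With IL4I1 present, knockdown of AHR was set against shCtrl. With shAHR1, IFITM2, a membrane protein that hinders fusion of enveloped viruses with endosomes, and IFI16, a sensor of nuclear and cytoplasmic DNA, rose, and 0 genes fell. The 2 are 5.13% of the list, against 1.55% of all genes called in either direction and 0.972% called higher.

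IFITM2 read 8.83, 8.40 and 8.30 in IL4I1 shAHR1 cells, against 6.84, 6.86 and 7.28 in IL4I1 shCtrl cells. The lowest shAHR1 array lay well above the highest shCtrl array. The difference was 1.52 ± 0.26 (2.87-fold, adjusted p = 0.0074), and it kept its call in 23 of 24 alternatives. The exception was the fit of the 2 groups alone, at an adjusted p of 0.062. IFI16 read 9.91, 9.99 and 10.10 in IL4I1 shAHR1 cells, against 9.21, 9.64 and 9.24 in IL4I1 shCtrl cells. The groups did not overlap, and the difference was 0.64 ± 0.15 (1.56-fold, adjusted p = 0.046). This call was near the threshold and held in 7 of 24 alternatives. Of the arrays left out singly, it held without replicate 1 of the control-vector shAHR2 cells, without replicates 1 or 2 of the control-vector shCtrl cells and without replicate 2 of the IL4I1 shCtrl cells, and it was lost without any other array, with adjusted p values up to 0.23 over all alternatives.

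In this comparison the arrays did not overlap for 15 of 39 genes (38.5%, against 18.1% of all genes). Of these, 12 were higher with shAHR1 (30.8%, against 9.06%) and 3 were lower (7.69%, against 9.03%). The 12 were IFITM1, IFITM2, IFITM3, IFI16, IFI44, IFI44L, PARP9, GBP1, SAMD9, SAMD9L, SP110 and HERC5. IFI44L, a paralog of IFI44, read 9.67, 9.58 and 9.33 in IL4I1 shAHR1 cells, against 8.21, 8.82 and 9.07 in IL4I1 shCtrl cells (0.83 ± 0.22, adjusted p = 0.078). PARP9, a partner of DTX3L in ADP-ribosylation, read 6.53, 6.22 and 6.18 in IL4I1 shAHR1 cells, against 4.85, 5.84 and 5.58 in IL4I1 shCtrl cells (0.89 ± 0.25, adjusted p = 0.098). For both genes every shAHR1 array lay above every shCtrl array, and neither passed the test in the main fit. IFI44L was called with a trended, robust variance (adjusted p = 0.031) and without dim genes (adjusted p = 0.038). It was also called without replicate 3 of the IL4I1 shCtrl cells (adjusted p = 0.045).

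The 3 with lower arrays were STAT2, IRF9 and HERC6, with differences of -0.36, -0.32 and -0.44 (adjusted p of 0.41 to 0.49). The arrays of all 3 measured IFITM genes were higher with shAHR1. The IL4I1 shCtrl arrays enter both this comparison and that of IL4I1 in shCtrl cells, so the values of IFI44, IFI44L, GBP1 and SAMD9 in the 2 comparisons are not independent. They are also the reference for shAHR2 with IL4I1. On replicates 1, 2 and 3 of the IL4I1 shCtrl cells the list had median deviations of -0.24, -0.16 and -0.01 from the genes' own medians. How far low reference arrays raised the shares of genes without overlap was not tested.

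With shAHR2 and IL4I1 the fit called 0 of 39 genes, against 1.26% of all genes. At an unadjusted p under 0.05 there were 11 of 39 (28.2%, against 11.7%), and the arrays did not overlap for 10 of 39 (25.6%, against 18.8%), of which 9 were higher with shAHR2 (23.1%, against 11%). IFITM2 read 8.01, 7.82 and 7.90 in IL4I1 shAHR2 cells, against the same shCtrl arrays (0.92 ± 0.26, adjusted p = 0.11). IFI16 read 9.85, 9.83 and 10.09 in IL4I1 shAHR2 cells (0.56 ± 0.15, adjusted p = 0.088). GBP2, a relative of GBP1, read 6.82, 6.42 and 6.96 in IL4I1 shAHR2 cells, against 5.28, 5.97 and 6.03 in IL4I1 shCtrl cells (0.98 ± 0.27, adjusted p = 0.097). Some genes were called here only in alternatives. IFI44 was higher with the replicate block, with array weights and without replicate 1 of the control-vector shCtrl cells (adjusted p of 0.022 to 0.049). IFI16 was called with a trended, robust variance and without dim genes (adjusted p = 0.031 and 0.042). GBP2 was called without dim genes and with array weights (adjusted p = 0.049 and 0.043), and IFITM2 with array weights (adjusted p = 0.042).

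IRF1 was the 1 gene whose arrays were all lower with shAHR2. It read 7.26, 7.43 and 7.15 in IL4I1 shAHR2 cells, against 8.03, 8.22 and 8.26 in IL4I1 shCtrl cells (-0.89 ± 0.25, adjusted p = 0.11). With array weights it was called lower (-0.9, adjusted p = 0.042). In IL4I1 shAHR1 cells it read 7.44, 8.08 and 7.49, and replicate 2 overlapped the shCtrl arrays (-0.50 ± 0.25, adjusted p = 0.44). The median difference over the 39 genes was 0.21 with shAHR2, against 0.02 over all genes, and 0.08 with shAHR1, against 0 over all genes.

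**Figure D3:**
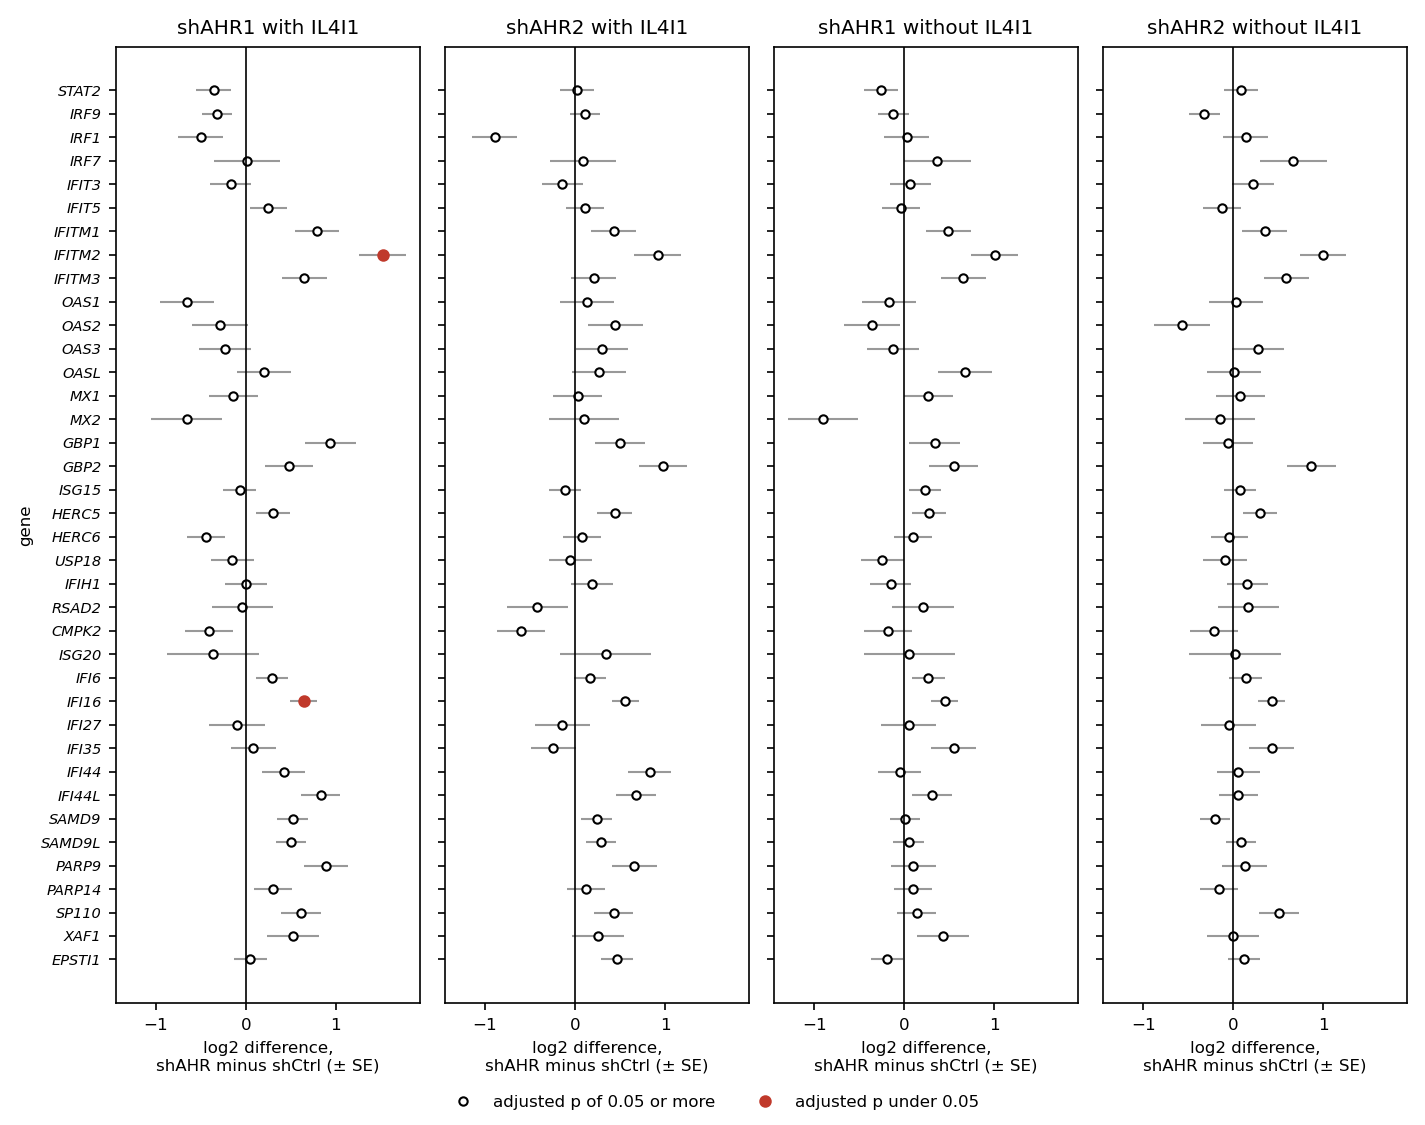
Log2 difference of each AHR hairpin minus shCtrl (points, with standard error) for 38 interferon-induced genes, with IL4I1 in the left pair of panels and with the control vector in the right pair; filled points passed an adjusted p of 0.05. IFITM2 (1.52) and IFI16 (0.64) with shAHR1 and IL4I1 are the filled points, and both genes lie to the right of 0 in all 4 panels.

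Without IL4I1, neither hairpin gave a call among the 39 genes in limma. The backgrounds were 0.406% of all genes with shAHR1 and 0.734% with shAHR2. Genes with an unadjusted p under 0.05 numbered 6 of 39 with shAHR1 (15.4%, against 11%) and 5 of 39 with shAHR2 (12.8%, against 11.1%). The arrays did not overlap for 4 of 39 with shAHR1 (10.3%, against 14.1%), and 4 of these were higher (against 8.31%) and 0 lower (against 5.78%). They did not overlap for 4 of 39 with shAHR2 (10.3%, against 14.2%), and 3 of these were higher (7.69%, against 8.22%) and 1 lower (2.56%, against 5.94%).

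IFITM2 read 8.62, 8.20 and 7.82 in control-vector shAHR1 cells and 8.56, 8.34 and 7.71 in control-vector shAHR2 cells, against 7.70, 6.90 and 7.01 in control-vector shCtrl cells. Each AHR hairpin lay above shCtrl on all arrays, though by a narrow margin at the nearest pair. The differences were 1.01 ± 0.26 and 1.00 ± 0.26 (adjusted p = 0.11 and 0.097). With shAHR2, IFITM2 was called with the replicate number as a block, with a trended, robust variance, without dim genes and without replicate 1 of the control-vector shCtrl cells (adjusted p of 0.046 to 0.05). With shAHR1 the block gave 0 calls. IFI16 read 9.72, 9.76 and 9.71 with shAHR1 and 9.94, 9.54 and 9.64 with shAHR2, against 9.19, 9.41 and 9.23 with shCtrl. Its differences were 0.45 ± 0.15 and 0.43 ± 0.15 (adjusted p = 0.24 and 0.25). The arrays of IFITM2 and IFI16 thus did not overlap in any of the 4 comparisons of an AHR hairpin with shCtrl, and these comparisons share their shCtrl arrays in pairs.

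The hairpins were set against each other to see how far they gave the same levels. No member was called in limma with or without IL4I1, and the background was 0% in both. Without IL4I1, the arrays did not overlap for 1 of 39 genes (2.56%, against 12.9% in either direction and 6.73% higher), and 1 of 39 had an unadjusted p under 0.05 (2.56%, against 6.89%). It was OASL, an OAS relative without synthetase activity, which read 8.04, 7.93 and 7.86 in shAHR1 cells, against 7.26, 7.38 and 7.18 in shAHR2 cells (0.67, adjusted p = 0.70). With IL4I1, the arrays did not overlap for 12 of 39 genes (30.8%, against 14.5%), 7 higher with shAHR1 (17.9%, against 6.25%) and 5 lower (12.8%, against 8.27%), and 6 of 39 had an unadjusted p under 0.05 (15.4%, against 7.28%). IFITM2 differed by 0.60 ± 0.26 (95% interval 0.04 to 1.16, adjusted p = 0.64). OAS1, which makes the second messenger that activates RNase L, read 5.18, 5.65 and 5.99 in IL4I1 shAHR1 cells, against 6.28, 6.61 and 6.27 in IL4I1 shAHR2 cells (-0.78 ± 0.30, interval -1.42 to -0.14, adjusted p = 0.58).

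**Figure D4:**
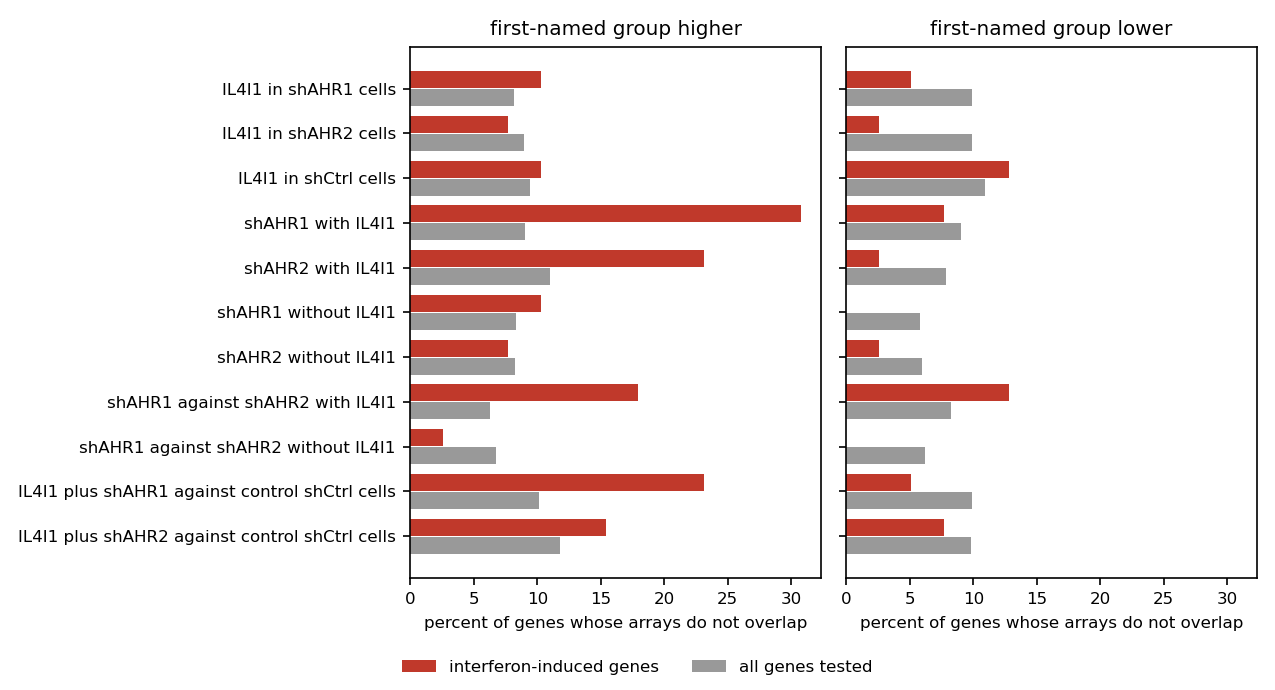
Percent of genes whose arrays do not overlap between the groups of each comparison, for the 39 interferon-induced genes and for all 15529 genes, with the first-named group higher (left) or lower (right). With shAHR1 in IL4I1 cells the list reaches 30.8% on the higher side, against 9.06% of all genes, and 7.69% on the lower side, against 9.03%.

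The design text describes IL4I1 cells with each hairpin against control-vector shCtrl cells. In IL4I1 shAHR1 cells 5 of the 39 genes rose (12.8%, against 4.53% of all genes called in either direction and 2.41% called higher), and 0 fell. They were IFI35, IFI16 and the 3 IFITM genes. In IL4I1 shAHR2 cells 1 of 39 rose, IFI16 (2.56%, against 3.35% in either direction and 2.16% higher). The arrays did not overlap for 11 of 39 genes with shAHR1 (28.2%, against 20%), 9 of them higher (23.1%, against 10.1%), and for 9 of 39 with shAHR2 (23.1%, against 21.6%), 6 of them higher (15.4%, against 11.8%). These comparisons share their control arrays with each other and with those above.

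IFITM3, the endosomal member of its family, read 11.61, 11.52 and 11.64 in IL4I1 shAHR1 cells, against 10.71, 9.93 and 10.65 in control-vector shCtrl cells. The IL4I1 shAHR1 arrays were tightly grouped above all control arrays, and the difference was 1.16 ± 0.25 (2.23-fold, adjusted p = 0.015). In the other groups IFITM3 averaged 11.16 ± 0.26 in IL4I1 shAHR2, 10.95 ± 0.22 in IL4I1 shCtrl, 11.09 ± 0.39 in control-vector shAHR1 and 11.02 ± 0.39 in control-vector shAHR2 cells (SD, n = 3 each), so these 4 groups lay between the extremes and did not differ beyond their spread. IFITM1, the family member found at the cell surface, read 6.20, 6.55 and 5.82 in IL4I1 shAHR1 cells, against 5.20, 5.04 and 5.51 in control-vector shCtrl cells (0.94 ± 0.25, 1.92-fold, adjusted p = 0.046). Its call held in 8 of 23 alternatives, with adjusted p values up to 0.19.

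IFITM2 differed by 1.31 ± 0.26 between IL4I1 shAHR1 and control-vector shCtrl cells (2.47-fold, adjusted p = 0.011). IFI35 read 8.43, 8.32 and 8.10 in IL4I1 shAHR1 cells, a difference of 1.15 ± 0.25 (2.22-fold, adjusted p = 0.015). IFI16 differed by 0.72 ± 0.15 (1.65-fold, adjusted p = 0.014) with shAHR1 and by 0.65 ± 0.15 (1.57-fold, adjusted p = 0.027) with shAHR2. All of these arrays lay above the control-vector shCtrl arrays. The 3 IFITM genes are close paralogs, and how far their probe sets share signal was not tested. Over all 18 arrays, IFITM2 and IFITM3 deviated from their group means together (r = 0.76).

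These counts moved when single arrays were left out, and so did those over all genes. With shAHR1 the latter went from 704 to between 240 and 837, and with shAHR2 from 520 to between 219 and 720. With shAHR1 the count of 5 was 1 without replicate 2 of the control-vector shCtrl cells or without replicate 2 of the IL4I1 shAHR1 cells. It was 3 without replicate 3 of the control-vector shCtrl cells or without replicate 1 of the IL4I1 shAHR1 cells. With shAHR2 the count of 1 was 0 without replicate 2 or 3 of the control-vector shCtrl cells or without any 1 of the IL4I1 shAHR2 arrays, and 2 without replicate 3 of the control-vector shAHR2 cells.

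**Figure D5:**
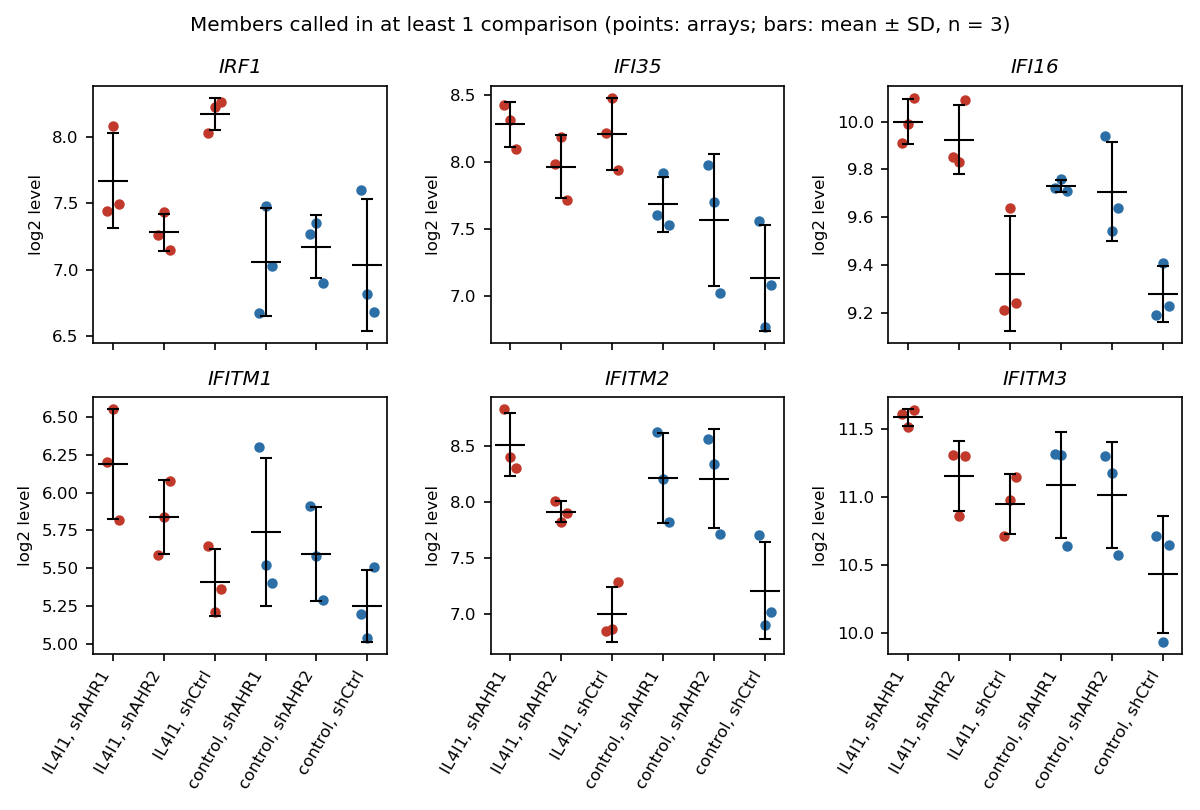
Log2 level of the 6 interferon-induced genes called in at least 1 comparison, by group (points are single arrays, bars are mean ± SD, n = 3). IRF1 is highest in IL4I1 shCtrl cells (8.03 to 8.26), and IFITM2 is lowest in the 2 shCtrl groups (6.84 to 7.70) and higher in all 4 groups with an AHR hairpin.

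No gene of the ISG15, IFIT, MX, OAS or RNA-sensing and nucleotide enzyme groups was called in the main fit of the 12 comparisons. Many of them read low. Of the 39 genes, 19 lay below the median of all group means (6.59) in every group. These include ISG15, IFIT3, IFIT5, MX1, OAS1, OAS2, OAS3, IFIH1, RSAD2 and CMPK2. Whether the low signal hid changes was not tested. ISG15, a ubiquitin-like protein conjugated to viral and host targets, lay between 5.27 and 6.13 on all 18 arrays. Its differences over the comparisons other than the interaction ran from -0.11 to 0.28, with 95% intervals reaching from -0.49 to 0.66. USP18, which removes ISG15 and dampens the type I receptor, was lower in the first-named group in every such comparison, by -0.51 to -0.05. Its lowest adjusted p was 0.26. These comparisons share arrays, and control-vector shCtrl cells, often the reference, had the highest USP18 mean (7.1). The shared sign is therefore not independent support. HERC5, the ligase that attaches ISG15, differed by up to 0.52 (lowest adjusted p 0.15).

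The IFIT proteins bind foreign RNA. IFIT3 differed by -0.17 to 0.29 and IFIT5 by -0.22 to 0.25, with lowest adjusted p values of 0.55 and 0.62. Of the dynamin-like GTPases, MX1 differed by -0.16 to 0.39 (intervals from -0.73 to 0.95). MX2 varied more among arrays of a group, with a within-group SD of 0.53 against 0.35 for MX1. One control-vector shAHR1 array of MX2 read 3.93, beside 5.85 and 5.47.

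Among the RNA-sensing and nucleotide enzymes, IFIH1, a sensor of long double-stranded RNA, differed by -0.30 to 0.19. RSAD2, which makes a chain-terminating nucleotide, differed by -0.42 to 0.38 with intervals from -1.13 to 1.1, so changes of up to about that size were not detectable with 3 arrays a group. CMPK2, its neighbouring nucleotide kinase gene, read 4.76, 4.62 and 5.02 in IL4I1 shAHR2 cells, against 5.49, 5.82 and 5.59 in control-vector shCtrl cells (-0.84 ± 0.27, adjusted p = 0.11). Its groups did not overlap, and it did not pass the test. The OAS family had no call in the main fit, and its largest difference was for OAS2, at 1.03 for IL4I1 in shAHR2 cells (lowest adjusted p 0.14). Without replicate 1 of the control-vector shAHR2 cells OAS2 was called in that comparison (1.29, adjusted p = 0.049).

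Other genes of the pathway were taken from a list of 85 interferons, receptors, kinases, sensors, inhibitors and effectors, of which 57 were measured. In IL4I1 against control-vector shCtrl cells 2 of 57 rose and 1 fell (5.26%, against 4.58% of all genes). IRF2, a factor that antagonises IRF1 at shared sites, rose by 0.60 ± 0.16 (adjusted p = 0.045). TRIM25, the ubiquitin ligase that activates RIG-I, rose by 0.63 ± 0.17 (adjusted p = 0.048). IKBKE, a kinase that phosphorylates IRF3, fell by 0.97 on the log2 scale (SE 0.19, adjusted p = 0.0081).

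With IL4I1 in shAHR1 cells 1 of 57 rose (1.75%, against 1.31% of all genes). It was PLSCR1, an interferon-induced scramblase, which rose by 1.05 ± 0.21 (adjusted p = 0.024). No gene of the 57 was called in limma for IL4I1 in shAHR2 cells, for either hairpin without IL4I1, for shAHR1 with IL4I1, between the hairpins or in the interaction. In these comparisons 2 to 11 of the 57 had an unadjusted p under 0.05 (3.51% to 19.3%, against 5.38% to 12.5% of all genes). With shAHR2 in IL4I1 cells 1 of 57 fell (1.75%, against 1.26% of all genes). It was the phosphatase PTPN11, which fell by 0.84 (SE 0.18, adjusted p = 0.033). Against control-vector shCtrl cells, 2 of 57 rose in IL4I1 shAHR1 cells (3.51%, against 4.53% of all genes). In IL4I1 shAHR2 cells 2 rose and 1 fell (5.26%, against 3.35%). TRIM22, an interferon-induced ubiquitin ligase, rose by 0.98 ± 0.21 in the former and by 1.23 ± 0.21 in the latter (adjusted p = 0.017 and 0.0049). PLSCR1 rose in both as well, by 1.00 ± 0.21 and 0.95 ± 0.21, and PTPN11 fell by 0.75 in the second. Of the interferons only IFNA14 and IFNL3 were measured, at differences of 0.00 ± 0.30 and 0.15 ± 0.20 for IL4I1 in shCtrl cells. Of the 5 measured genes of the leukocyte list, CSF1R and NCAM1 were called in some comparison, and PTPRC, CD3E and AIF1 in none. CSF1R fell by 1.08 with IL4I1 in shAHR1 cells (adjusted p = 0.042). NCAM1 rose by 1.21 with shAHR2 in IL4I1 cells (adjusted p = 0.0059) and by 0.78 in IL4I1 shAHR2 against control-vector shCtrl cells (adjusted p = 0.042). Of the 3 astrocyte markers measured, GFAP averaged 5.80 in IL4I1 shCtrl cells, against 6.54 in control-vector shCtrl cells, and fell by 0.74 (SE 0.20, adjusted p = 0.042). The part of these markers in the results was not tested.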

How the data were processed

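Total RNA of 18 U-87MG cultures was hybridised to 1-colour Affymetrix arrays. Log2 expression values, 1 for each probe set, were deposited, made by the authors with oligo and RMA, per the submitters' processing notes; their versions are not stated, and the log2 scale was read from the values. RMA aligns the arrays' distributions, which hides any shift common to all transcripts. Of 18913 probe sets, 15598 had 1 symbol, 870 had several and 2445 were not listed; 1173 symbols were updated through RefSeq synonyms (GRCh38.p14). The brightest probe set was kept where a gene had several (66 genes), leaving 15529 genes. No filter on low values was used; an alternative kept genes with a group mean above the median of all values tested, which 20 of the 39 members passed.

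The fits used limma 3.58.1 in R 4.3.3 (lmFit, eBayes, 6 group means, Benjamini-Hochberg over all 15529 genes), tested on simulated data first. With 3 arrays a group an exact permutation test cannot go below 0.1. The members, the gene lists and the comparisons were chosen with earlier results of these data known. Every member could be named. Members called in any of the 12 comparisons are given with every array of the groups compared. Arrays with the same replicate number deviated together (every r over 0.1) only between control-vector shAHR1 and control-vector shCtrl cells; the closing section gives the fits with the number as a block.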

Additional observations from a re-analysis of the deposited data

How the results depend on the processing

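Counts of called genes among the 39 rested on few arrays. Leaving out 1 array at a time gave 0 to 3 for IL4I1 in shCtrl cells, 1 to 2 for shAHR1 with IL4I1, 1 to 5 for IL4I1 with shAHR1 and 0 to 2 for IL4I1 with shAHR2 against control-vector shCtrl cells. It gave 0 to 1 for IL4I1 in shAHR2 cells, for shAHR2 without IL4I1 and for shAHR2 with IL4I1. For the averages described under other observations it gave 2 to 7 for IL4I1 and 2 to 4 for the hairpins. Fitting only the groups compared left 0 in each of the 4 comparisons that had calls. Array weights gave 1 for IL4I1 in shAHR2 cells, 1 for shAHR1 with IL4I1 and 4 for shAHR2 with IL4I1. A trended, robust variance gave 1 for shAHR2 without IL4I1, 1 for shAHR2 with IL4I1, 2 for IL4I1 with shAHR2 against control-vector shCtrl cells and 5 for the hairpin average. Leaving out dim genes gave 1, 2, 2 and 6 for the same results. The count of genes whose arrays did not overlap ranged from 15 to 20 for shAHR1 with IL4I1 and from 10 to 17 for shAHR2 with IL4I1 when 1 array was left out, partly because fewer arrays overlap less. The shares over all genes in these runs are not given here, so the rise is not read as a result about the list. No difference of a called gene changed sign in any alternative run.

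Residuals of the 45 pairs of groups with the same replicate number correlated at -0.13 to 0.32 (median 0.04), and 11 pairs exceeded 0.1. All 3 pairs exceeded it only between control-vector shAHR1 and control-vector shCtrl cells (0.16, 0.18 and 0.25), where the block called 0 of the 39 genes, as did the fit without it. Elsewhere the numbers were not taken as pairing. Replicate 3 of the control-vector groups and of IL4I1 shCtrl cells did deviate together in every pair of these groups (0.12 to 0.32). With the replicate block the counts were 1 for shAHR2 without IL4I1, 1 for shAHR1 with IL4I1, 1 for shAHR2 with IL4I1, 2 for IL4I1 with shAHR2 against control-vector shCtrl cells and 5 for the hairpin average. The causes were not tested. The 3 arrays a group limit the precision.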

Other observations

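Averages over groups, chosen after the values were seen, use all 18 arrays. Averaged over the 3 hairpins, 3 of the 39 genes rose with IL4I1 and 2 fell (12.8%, against 12.6% of all genes). IFI35 rose by 0.69 ± 0.14 and IRF1 by 0.62 ± 0.15 (limma adjusted p = 0.0037 and 0.0092), and both kept their calls in 23 of 23 alternatives. MX2 rose by 0.73 ± 0.23 (adjusted p = 0.045), with calls in 12 of 23. SP110, a nuclear body protein, fell by 0.42 (SE 0.13, adjusted p = 0.036), and GBP2 fell by 0.50 (SE 0.16, adjusted p = 0.044), each called in 13 of 23. Among the 57 other pathway genes 7 rose and 5 fell (21.1%, against 12.6% of all genes). PLSCR1 rose by 0.80 ± 0.12 (adjusted p = 0.00031), TRIM25 by 0.54 ± 0.10 and TRIM22 by 0.56 ± 0.12. RIGI, a sensor of viral RNA, fell by 0.67 (SE 0.12, adjusted p = 0.0012), and SOCS1, a feedback inhibitor of Janus kinases, fell by 0.53 (SE 0.12, adjusted p = 0.0094).

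Averaged over both AHR hairpins and both vectors, 3 of the 39 genes rose with AHR knockdown and 0 fell (7.69%, against 5.36% of all genes in either direction and 3.43% higher). IFITM2 rose by 1.11 ± 0.16 (2.16-fold, adjusted p = 0.00062) and IFI16 by 0.52 ± 0.09 (1.44-fold, adjusted p = 0.0029), and both kept their calls in 23 of 23 alternatives. GBP2 rose by 0.72 ± 0.17 (adjusted p = 0.016). Its call was lost without replicate 1 of the control-vector shCtrl cells or without replicate 1 of the IL4I1 shCtrl cells, with adjusted p values up to 0.06. Of the 57 other pathway genes 3 rose and 1 fell (7.02%, against 5.36% of all genes). RIGI rose by 0.53 ± 0.12, SP100 by 0.42 ± 0.11 and TRIM22 by 0.49 ± 0.13. PTPN11 fell by 0.46, and the adjusted p values of all of these were 0.019 to 0.037. In the leukocyte list NCAM1 rose by 0.57 ± 0.12, while CSF1R fell by 0.66 with IL4I1 in the average over the hairpins (adjusted p = 0.0054), and their part in these results was not tested.

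The 39 genes did not vary as 1 block within groups. Over 741 gene pairs the median correlation of deviations from the group means was 0.03 (18 arrays), and 9 pairs exceeded 0.7. The highest were SP110 with SAMD9L (0.91), PARP14 with CMPK2 (0.82) and ISG15 with OAS2 (0.81). The lowest were IFI35 with HERC5 (-0.87), IFI27 with IRF7 (-0.8) and IRF1 with HERC6 (-0.75). Pairs of other genes were not computed beside them. All pairs share the same arrays, and these values are a description.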
